A study of Drosophila melanogaster with 9 samples.

Results

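The comparison described here set sorted mesodermal cells of Drosophila embryos that carried a deletion of jumu against the same kind of cells from control embryos. It took in 6 of the 9 arrays of the series, 3 per group, and every probe set that was not an array control. Both groups came from embryos at stage 11 to early stage 12, aged at 25 °C and dissociated, and green fluorescent cells were collected by flow sorting. Control embryos carried twi-GAL4 UAS-2EGFP and no deletion. In the deficiency embryos, both copies of the third chromosome carried Df(3R)Exel6157, one of them together with twi-GAL4 and the other with UAS-2EGFP, and the labels call this deficiency a jumu null. Both groups thus share the twi-GAL4 driver, which switches on GFP in cells that express Twist. The remaining 3 arrays were from embryos with Df(1)CHES-1-like1, labelled CHES-1-like null, and twi-GAL4 UAS-2EGFP. They entered the common estimate of spread and the tests between the mutants. A chromosomal deficiency can remove more than 1 gene, and the sources used here do not list the genes that Df(3R)Exel6157 removes. The labels do not say whether the arrays of a group came from separate embryo collections, so the p-values rest on array-to-array spread that may be technical only.

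jumu (jumeau) and CHES-1-like encode Forkhead transcription factors, proteins that bind DNA through a winged-helix domain. In the fly embryo, the mesoderm at these stages is being divided into somatic muscle, visceral muscle, heart, fat body and haemocyte precursors. Forkhead factors are known to act in the specification and division of heart progenitors, and the title of the series names Wnt and FGF (fibroblast growth factor) receptors as the genes in question.

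Values are log2 signals as deposited, and a change is the deficiency mean minus the control mean on that scale, given with its standard error (SE) from the limma fit. A gene was represented by its brightest probe set, and was called when its adjusted p was under 0.05. The replicate arrays were close, with correlations over all probe sets of 0.998 to 0.999 within the deficiency group and 0.999 within the control group, against 0.987 to 0.988 between the groups. The median SE of a gene's change was 0.063, so changes as small as 0.11 were called. Odorant and gustatory receptor genes, which serve as a measure of background, had a 95th percentile of 5.27 over 127 probe sets, and a signal under this bound is called background below. The 3' minus 5' difference in log2 signal of the actin control transcript was 1.26 ± 0.03 (SD, n = 3) in the deficiency arrays and 1.04 ± 0.01 in the controls. For eIF-4a it was 1.35 ± 0.03 against 1.07 ± 0.07, for GAPDH 0.423 ± 0.162 against 0.344 ± 0.090, and for 18S rRNA 0.757 ± 0.052 against 0.952 ± 0.053. The difference was thus larger in the deficiency arrays for actin and eIF-4a, smaller for 18S rRNA and within the spread for GAPDH. A larger difference goes with less intact RNA. The part of RNA integrity in the results was not tested.

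jumu itself read 10.54, 10.46 and 10.57 in the control arrays and 8.18, 8.21 and 7.99 in the deficiency arrays. The groups did not overlap, and the change was -2.39 ± 0.07 (limma, adjusted p = 1.24e-08). The remaining signal lay above the background bound of 5.27. Rfx, the next measured gene on chromosome arm 3R and the gene of a winged-helix factor of ciliated sensory neurons, read 6.24, 6.41 and 6.31 in the control arrays and 4.35, 4.08 and 4.25 in the deficiency arrays. It fell by 2.09 to a level under the background bound. Other genes close to jumu moved in both directions. Of the 8 measured genes on each side of jumu in the annotation order, 6 were higher and 4 lower, Rfx included, where 17.6% of all measured genes were higher and 21.0% lower. Bruce, a large inhibitor of apoptosis with a ubiquitin-conjugating domain, lies 4 measured genes from jumu and read 9.62, 9.71 and 9.62 in the control arrays and 13.06, 12.98 and 13.09 in the deficiency arrays. Its change of 3.40 ± 0.05 was the largest among them and corresponds to 10.5-fold. CG12818, its neighbour toward jumu, fell by 0.74, whereas CG31406, which adjoins jumu, rose by 1.12 within the background range. On the far side of Rfx, cwo changed by -0.14 ± 0.09 (limma, adjusted p = 0.276). The deletion and the genetic background of the chromosome that carries it cannot be told apart in this design, and this holds for every gene described here.

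Among the other Forkhead genes, CHES-1-like read 12.03, 11.97 and 12.02 in the control arrays and 11.38, 11.61 and 11.19 in the deficiency arrays, a change of -0.61 ± 0.13 (limma, adjusted p = 0.00557). Its second deficiency array lay highest and all 3 lay under the controls. Its further probe set, with a change of -0.53, did not pass the test (limma, adjusted p = 0.0759). Of 16 measured Forkhead genes, jumu included, 6 were lower and 2 higher, with a median change of -0.13. fd102C (-0.60) and FoxK (-0.27) were among the lower ones. The visceral mesoderm factor bin (biniou) rose by 0.43 and croc, a factor of head development, by 0.28.

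The FGF receptor gene htl (heartless), which directs migration and specification of the mesoderm, read 9.81, 9.69 and 9.75 in the control arrays and 10.30, 10.33 and 10.22 in the deficiency arrays. All deficiency arrays lay above all controls, with a change of 0.53 ± 0.07 (limma, adjusted p = 0.000473). btl (breathless), the FGF receptor of the trachea, read 6.97, 6.85 and 7.09 in the control arrays and 8.73, 8.67 and 8.72 in the deficiency arrays and rose by 1.73. Of the Ryk-type Wnt receptors, drl (derailed) rose by 0.51 and dnt (doughnut) by 0.23. Drl-2 rose by 0.31, within the background range. In the limma test, Ror (-0.15 ± 0.06, adjusted p = 0.0774) and otk (off-track; 0.02 ± 0.05, adjusted p = 0.763) did not pass. The Wnt receptor gene frizzled was not analysed here. btl and htl both belong to a list of 37 genes of the FGF, EGF and Ras pathways, of which 12 were higher and 9 lower; centring each array on its median turned this to 9 and 12.

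Across the genome, 2113 of 11982 genes were higher in the deficiency cells (17.6%) and 2515 were lower (21.0%). The median change over all genes was 0.013, and most calls were small. The median size of a called change was 0.33, and 72.4% of the calls were under 0.5. For 54.2% of the genes, no array of one group reached into the range of the other, so an absence of overlap is common here. At least 2-fold changes were found for 179 genes upward (1.49%) and 155 downward (1.29%), and at least 16-fold changes for 9 and 7. Over probe sets, 2781 of 18769 were higher (14.8%) and 3254 lower (17.3%), and at least 2-fold changes made up 1.35% and 1.09% of the probe sets. Of the calls, 46.1% were upward. The share was 48.5% after quantile normalization and 31.4% after median centring. The direction of the calls varied with the control signal. That signal enters each change, and a gene at background can hardly fall, so part of this split was fixed in advance. Among 4411 genes whose control signal was background, 556 were higher and 155 lower, whereas among 1010 genes above a signal of 11, 180 were higher and 333 lower. At a control signal of 7 to 9, 36.6% of the genes were lower and 21.8% higher, and at 9 to 11, 32.9% and 21.4%. The 21.0% lower over all genes thus includes many genes at background. For lists of brighter genes described below, the shares at like signal are the closer measure.

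**Figure D1:**
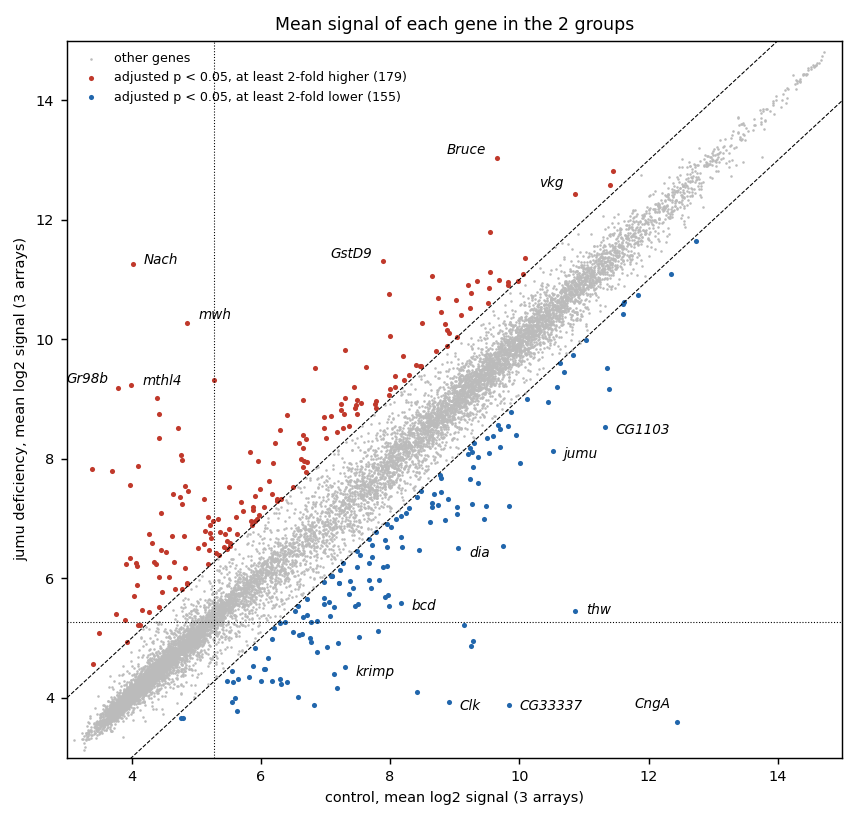
Mean log2 signal of each of 11982 genes in the control arrays (x axis) and the jumu deficiency arrays (y axis), 3 arrays each. Dashed lines mark 2-fold differences and dotted lines the background bound of 5.27; 179 genes lie above and 155 below with an adjusted p under 0.05, and Nach and CngA lie farthest from the diagonal.

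Many of the largest increases were of genes that read as background in the control cells. Nach, a sodium channel gene of the DEG/ENaC family, read 4.02, 4.01 and 4.04 in the control arrays and 11.35, 11.15 and 11.28 in the deficiency arrays, a change of 7.24 ± 0.06 (limma, adjusted p = 1.78e-11). Since the control signal was background, the increase was at least 63.5-fold when set against the bound. Gr98b, a gustatory receptor gene, read 3.82, 3.79 and 3.74 in the control arrays and 9.23, 9.06 and 9.27 in the deficiency arrays, at least 15.1-fold. mthl4, of the Methuselah family of G protein-coupled receptors, read 3.91, 4.002 and 4.08 in the control arrays and 9.20, 9.23 and 9.28 in the deficiency arrays, and its further probe set rose by 5.76. mthl8, of the same family, rose by 3.80. mwh (multiple wing hairs), which restricts actin hair formation in planar polarity, read 4.96, 4.73 and 4.89 in the control arrays and 10.32, 10.17 and 10.35 in the deficiency arrays, but its further probe set read background in both groups (change -0.01). The change of mwh therefore rests on 1 of its 2 probe sets.

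Other leading increases included membrane and signalling proteins. beat-Ic, a cell surface immunoglobulin gene of the beaten path family, changed by 4.44 ± 0.09. The guanylyl cyclase gene Gyc89Da changed by 4.33 ± 0.10, and the adenylyl cyclase gene Ac78C by 3.79 ± 0.07. nompA, a matrix protein of sensory organs, rose by 4.03 at its brightest probe set and by 0.33 at another. Dnaaf3, an assembly factor of ciliary dynein, rose by 3.60, and the amylase-related gene Amyrel by 3.29. Among genes with clear control signal, GstD9, a glutathione S-transferase, read 7.89, 7.91 and 7.88 in the control arrays and 11.27, 11.29 and 11.35 in the deficiency arrays, 10.7-fold higher. The unnamed genes CG31176 (4.63), CG31601 (4.09) and CG14022 (3.93) also belonged to the 20 largest increases.

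The largest decrease was that of CngA, a cyclic nucleotide-gated channel gene, which read 12.43, 12.45 and 12.46 in the control arrays and 3.35, 3.66 and 3.78 in the deficiency arrays. The change of -8.86 ± 0.09 took the probe set from among the brightest genes to background, at least 145-fold, while its further probe set was background in both groups (-0.08). thw, grouped here with the cuticle and chitin genes, read 10.83, 10.95 and 10.80 in the control arrays and 5.44, 5.68 and 5.25 in the deficiency arrays, and its further probe sets changed by -4.79 and 0.01. Clk (Clock), a bHLH-PAS activator of the circadian oscillator, read 8.94, 8.86 and 8.93 in the control arrays and 3.81, 4.14 and 3.83 in the deficiency arrays, at least 12.5-fold lower. Pdp1, a leucine zipper factor of the same oscillator, read 9.92, 9.90 and 10.004 in the control arrays and 8.38, 8.66 and 8.18 in the deficiency arrays. All 3 deficiency arrays of Pdp1 lay under the controls, the second of them highest. Ac76E, an adenylyl cyclase gene, changed by -4.33 ± 0.14 into background, opposite in direction to Ac78C.

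dia (diaphanous), a formin that nucleates actin filaments for cytokinesis, read 9.06, 9.08 and 9.03 in the control arrays and 6.54, 6.36 and 6.64 in the deficiency arrays and fell by 2.54. bcd (bicoid), the maternal determinant of the anterior body axis, read 8.13, 8.23 and 8.14 in the control arrays and 5.58, 5.61 and 5.56 in the deficiency arrays. Its further probe set fell by 0.65, so both probe sets moved the same way by different amounts. krimp (krimper), a Tudor protein of the piRNA pathway, read 7.27, 7.18 and 7.45 in the control arrays and 4.63, 4.40 and 4.51 in the deficiency arrays and fell by 2.79 to background. Cyp4p2, a cytochrome P450 gene, fell by 2.69. Several unnamed genes fell by still more, among them CG33337 (-5.96), CG18754 (-4.39), CG15128 (-4.33) and CG42324 (-3.92). Over all 334 genes with at least 2-fold changes, 49 had further probe sets. Of these 79 further probe sets, 51 changed in the same direction, 24 did not pass the test and 4 changed in the opposite direction.

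Among the brightest 10% of the genes, the collagen IV genes led the increases. vkg (viking), one of the collagen IV chains, read 10.85, 10.86 and 10.86 in the control arrays and 12.43, 12.38 and 12.50 in the deficiency arrays. Col4a1, its partner chain, read 11.40, 11.42 and 11.42 in the control arrays and 12.58, 12.57 and 12.60 in the deficiency arrays. The groups were far apart for both, and the changes were 1.58 ± 0.05 and 1.17 ± 0.04. Rnf11, a RING finger gene on chromosome 4, rose by 1.37 and by 1.29 at its further probe set. cathD (cathepsin D, a lysosomal protease; 0.85), Sr-CI (a scavenger receptor of haemocytes; 0.66), sgl (UDP-glucose dehydrogenase of proteoglycan synthesis; 0.58) and Pvr (the PDGF/VEGF receptor; 0.52) were among the others. Falls in this brightness range included those of CngA and thw. CG1103 read 11.33, 11.32 and 11.32 in the control arrays and 8.48, 8.54 and 8.58 in the deficiency arrays. EndoU (an endoribonuclease) changed by -2.22 ± 0.04, and its further probe set by -2.66. sug (sugarbabe), a zinc finger factor of sugar-responsive lipid synthesis, changed by -1.84 ± 0.05. hry (hairy), a pair-rule repressor of the bHLH class, read 12.74, 12.71 and 12.75 in the control arrays and 11.59, 11.79 and 11.58 in the deficiency arrays.

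Marker genes of the labelled cell type were present. Of 19 listed mesoderm markers, 14 were measured, Mef2 and tin not among them, and all 14 exceeded the background bound in the controls. Of them 11 were higher in the deficiency cells and 1, lmd (lame duck, a factor of fusion-competent myoblasts), was lower. Their mean signal per array was 9.72 to 9.79 in the controls and 10.04 to 10.07 in the deficiency arrays, so the groups did not overlap. sns (sticks and stones), the adhesion molecule of fusion-competent myoblasts, read 9.40, 9.40 and 9.41 in the control arrays and 10.23, 10.23 and 10.25 in the deficiency arrays, and bap (bagpipe), the visceral mesoderm homeodomain factor, read 8.49, 8.51 and 8.46 in the control arrays and 9.32, 9.23 and 9.45 in the deficiency arrays. twi rose by 0.18 and zfh1 by 0.15, whereas Him (0.06 ± 0.04) and mid (-0.04 ± 0.07) did not pass the test. Of 12 haemocyte markers, 6 were higher and none lower. Over all genes, 17.6% were higher and 21.0% lower. The mean signal of the haemocyte markers per array was 9.45 to 9.48 in the controls and 9.80 to 9.86 in the deficiency arrays. Of 10 neural markers, 6 were lower and 1 higher, at 9.005 to 9.030 against 8.71 to 8.88. Of 9 epidermal markers, 4 were lower, at 7.49 to 7.56 against 7.27 to 7.32. Of 10 germ cell markers, 5 were lower and 1 higher, at 7.004 to 7.053 against 6.37 to 6.43, and the defining germ cell genes vas and osk were background in the controls. Markers of glia, trachea, salivary gland and endoderm had 1 higher and 1 lower each, of 5, 6, 4 and 5 measured. Of 6 amnioserosa markers, 3 were higher and 1 lower. In bulk samples, fewer cells of a type and less RNA per cell cannot be told apart. The part of these marker shifts in the gene groups described next was not tested.

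Genes of the basement membrane and other matrix were more often higher than lower. Of 25 measured, 13 were higher and 4 lower, with a median change of 0.18. Besides vkg and Col4a1, Glt (glutactin), a basement membrane glycoprotein, read 9.24, 9.28 and 9.26 in the control arrays and 10.82, 10.75 and 10.76 in the deficiency arrays. prc (pericardin), a collagen-like matrix protein around the heart, read 5.96, 5.95 and 5.95 in the control arrays and 7.85, 7.93 and 8.09 in the deficiency arrays and changed by 2.01 ± 0.08. Of the 4 laminin genes, 1 passed the test. LanA, LanB1 and LanB2 changed by 0.09, 0.04 and 0.06 and did not pass, and wb (wing blister), an alpha chain, rose by 0.23. Further probe sets of wb, at background in both groups, changed by 0.15 and 0.06 and did not pass. Ndg (nidogen) fell by 0.12, and the matrix metalloproteinase Mmp2 by 0.28. Of the 12 markers of haemocytes, cells that secrete collagen IV in the embryo, 6 were higher in the same arrays and 6 did not pass the test.

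Many genes of the secretory route rose by small amounts. Of 41 genes of protein folding and export in the endoplasmic reticulum, 23 were higher (56.1%) and 6 lower, with a median change of 0.16. Cnx99A (calnexin) read 12.05, 12.02 and 12.01 in the control arrays and 12.44, 12.36 and 12.45 in the deficiency arrays. Stt3B, a catalytic subunit of oligosaccharyl transferase, rose by 0.38, Der-1 (derlin, of ER-associated degradation) by 0.36, and Hsc70-3 (BiP) by 0.33. The oxidase gene Ero1L and the stress kinase gene PEK fell by 0.27 each. Of 30 genes of vesicle coats and the Golgi, 15 were higher and 3 lower. Of the 6 measured COPI subunit genes, 5 rose, led by zetaCOP (0.39) and epsilonCOP (0.31), and betaCOP did not pass the test (-0.10). Of the 4 COPII coat genes only Sec24CD passed. The Golgi SNARE gene Membrin rose by 0.44. After median centring the folding and export list still had 15 genes higher and 6 lower, and the coat and Golgi list 10 and 5.

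**Figure D2:**
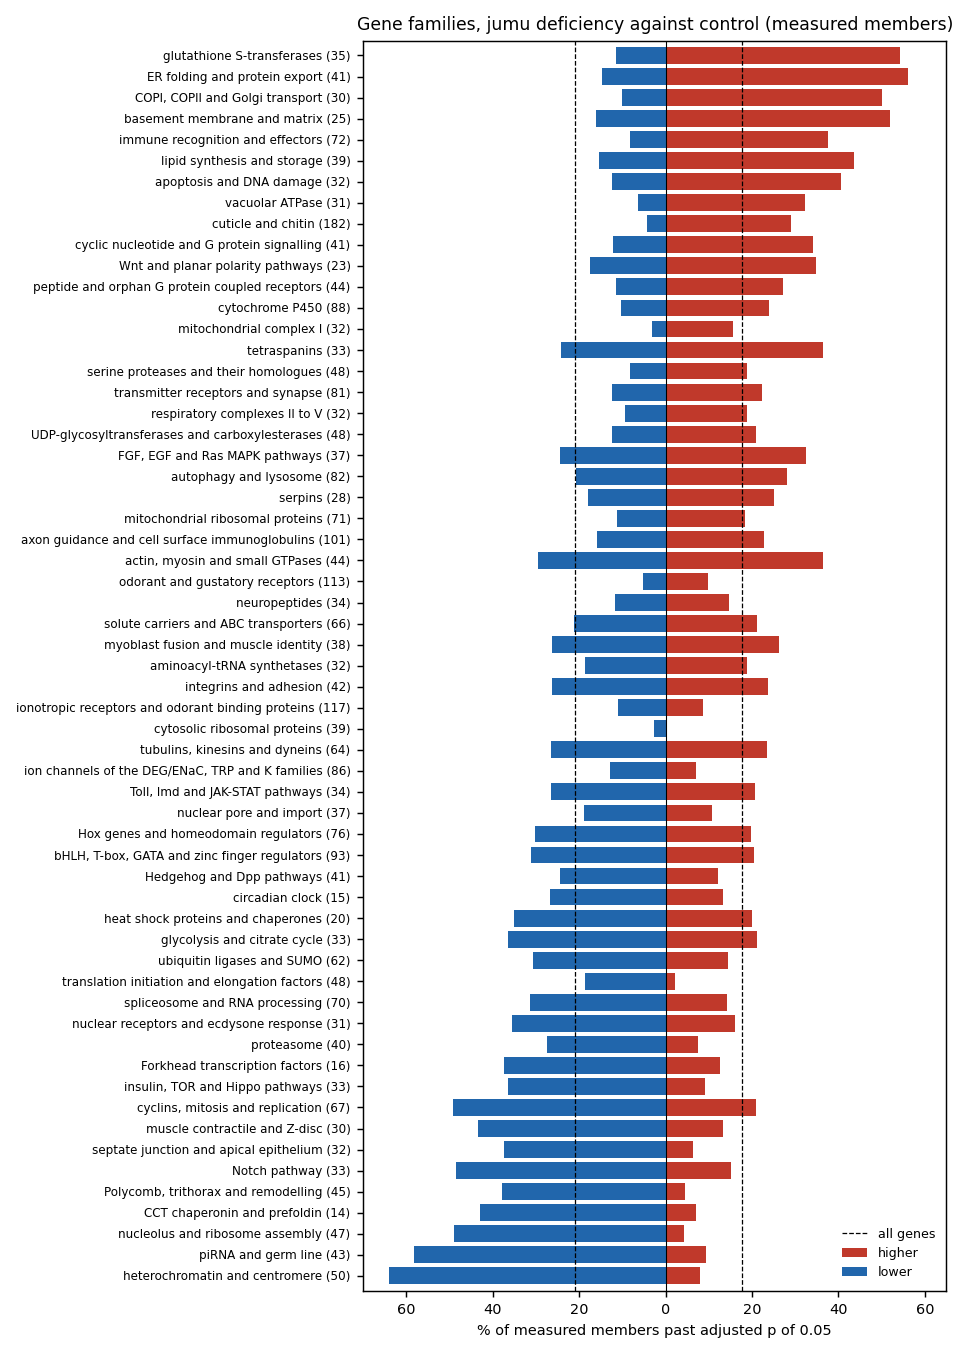
Share of the measured members of each gene family (number in brackets) that were higher (red, to the right) or lower (blue, to the left) in the jumu deficiency at an adjusted p under 0.05, in percent. Dashed lines give the shares over all genes, 17.6% higher and 21.0% lower; families are ordered by the difference of the shares, from glutathione S-transferases to heterochromatin and centromere genes.

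Genes of innate immune recognition, many of which are products of haemocytes or the fat body, were more often higher than lower. Of 72 measured, 27 were higher (37.5%) and 6 lower, with 10 of the 27 at background in the controls. The NimB genes, a cluster of secreted relatives of the Nimrod phagocytosis receptors, all rose. NimB4 read 7.46, 7.52 and 7.33 in the control arrays and 9.21, 9.12 and 9.28 in the deficiency arrays. NimB2 changed by 1.68 ± 0.06, NimB1 by 1.59 ± 0.10, NimB3 by 1.29 ± 0.05 and NimB5 by 0.55 ± 0.10. All 6 Idgf genes, which encode secreted chitinase-like growth factors, rose as well, by 0.38 to 1.27, 2 of them from background. A further probe set of Idgf3, at background in both groups, did not pass the test (0.06). Idgf6 read 10.14, 10.10 and 10.04 in the control arrays and 11.35, 11.37 and 11.38 in the deficiency arrays, and Idgf2 read 8.36, 8.30 and 8.24 in the control arrays and 9.40, 9.40 and 9.42 in the deficiency arrays. NimC1, a phagocytosis receptor of haemocytes, rose by 1.89 from a background level, and crq (croquemort), a scavenger receptor, by 0.69. Other defining genes of blood cells did not pass the test, among them srp (0.06 ± 0.06), Pxn (-0.08 ± 0.04), PPO1 (0.06 ± 0.05) and PPO2 (0.13 ± 0.04). The drosomycin-like genes Drsl5 (-1.94) and Drsl2 (-1.41) fell. In the Toll pathway, the ligand gene spz (spätzle) rose by 1.37 and the caspase gene Dredd of the Imd pathway by 0.68, whereas spz3 (-0.73), the Rel factor gene dl (-0.54) and the receptor gene Tollo (-0.47) fell.

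Genes of lipid synthesis and storage were more often higher than lower. Of 39 measured, 17 were higher (43.6%) and 6 lower. apolpp (apolipophorin), the main lipoprotein of the haemolymph, read 10.72, 10.61 and 10.68 in the control arrays and 11.58, 11.68 and 11.57 in the deficiency arrays. Apoltp, the lipid transfer particle, rose by 0.68, and Npc2a, a sterol transfer protein, read 9.70, 9.70 and 9.67 in the control arrays and 11.004, 10.91 and 11.04 in the deficiency arrays. Mtp, the microsomal transfer protein that loads lipoproteins, moved the opposite way and read 10.999, 11.06 and 11.04 in the control arrays and 10.02, 9.93 and 10.01 in the deficiency arrays. whd (withered), a carnitine palmitoyltransferase, rose by 1.17 at 1 probe set and not at another (0.08). Of 5 fat body markers, none passed the limma test and 2 had an unadjusted p under 0.05; their mean signal was 8.19 to 8.23 per array in the controls and 8.28 to 8.34 in the deficiency arrays.

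Glutathione S-transferases, enzymes that conjugate reactive compounds, had 19 of 35 members higher (54.3%) and 4 lower, with a median change of 0.21. The delta class on arm 3R had 7 of 11 higher, 2 of them from background, and none lower. GstD1, the neighbour of GstD9, read 9.13, 9.26 and 9.21 in the control arrays and 10.94, 10.87 and 10.93 in the deficiency arrays. GstS1 (sigma class) rose by 1.08 and GstT4 (theta class) by 0.83. GstE11 fell by 0.97 and GstT1 by 0.40. Other detoxifying enzymes were less uniform. Of 88 cytochrome P450 genes, 21 were higher and 9 lower, but 13 and 13 after median centring. Cyp4p1 and Cyp4p2 fell by 1.83 and 2.69, and Cyp6a23 by 1.60. Ugt302C1, of the UDP-glycosyltransferases, fell by 2.24.

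Cuticle and chitin genes were more often higher than lower, mostly at low signal. Of 182 measured, 53 were higher (29.1%) and 8 lower, and 31 of the 53 were background in the controls. Of 23 Osiris genes, which encode transmembrane proteins of cuticle-forming cells, 8 were higher, 3 of them from background, and none lower. Osi6 read 8.87, 8.93 and 8.77 in the control arrays and 10.21, 10.25 and 10.29 in the deficiency arrays, and Osi15 changed by 1.52 ± 0.06. Of 24 Tweedle genes 12 were higher, 8 of them from background. TwdlF read 5.81, 5.86 and 5.98 in the control arrays and 7.14, 7.08 and 7.20 in the deficiency arrays. The epidermal transcription factor genes grh (grainy head) and vvl (ventral veins lacking) fell by 0.56 and by 0.51. Genes of septate junctions and apical polarity had 2 of 32 higher and 12 lower (37.5%), or 5 and 10 after quantile normalization, among them vari (varicose; -0.89), crb (crumbs; -0.55) and Nrx-IV (-0.37).

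Among the 59 gene families, that of heterochromatin and centromere genes had the highest share of lower members. Of 50 measured, 32 were lower (64.0%) and 4 higher, with a median change of -0.28. The 6 condensin genes, whose products compact mitotic chromosomes, all fell. SMC2 read 9.30, 9.24 and 9.25 in the control arrays and 8.46, 8.45 and 8.54 in the deficiency arrays, and glu (gluon, the SMC4 subunit) read 9.39, 9.42 and 9.38 in the control arrays and 8.69, 8.68 and 8.74 in the deficiency arrays. Cap-D2 changed by -0.70 ± 0.07, barr (barren) by -0.60 ± 0.05, Cap-D3 by -0.45 ± 0.08 and Cap-G by -0.14 ± 0.05. Of the cohesin subunit genes, SMC1 fell by 0.11 and SMC3 did not pass the test (0.06 ± 0.04). The 4 genes of the chromosomal passenger complex, which corrects attachments to the spindle, also all fell. These were Incenp (-0.61), Det (the Survivin gene; -0.46), borr (borealin; -0.38) and aurB (Aurora B; -0.32). Of 9 kinetochore genes, 6 fell, led by Cenp-C, which read 9.71, 9.78 and 9.79 in the control arrays and 8.87, 8.90 and 9.02 in the deficiency arrays, and Ndc80, which changed by -0.75 ± 0.04, while Mis12 rose by 0.40. The centromeric histone gene cid did not pass the test (0.00 ± 0.08).

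**Figure D3:**
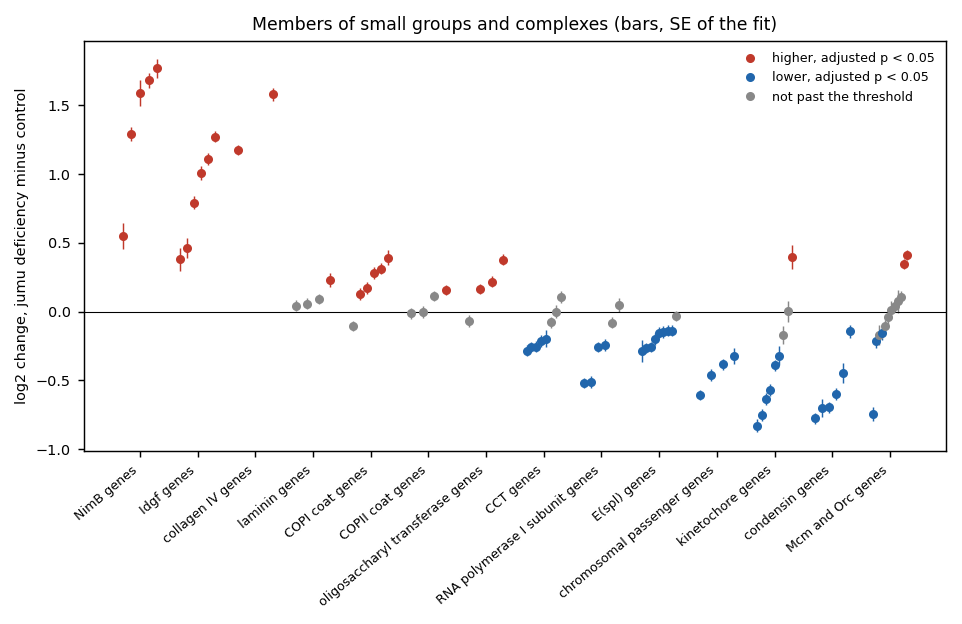
Log2 change (deficiency minus control, y axis) of each measured member of 14 small gene groups, with the SE of the fit from 3 arrays per group. All NimB, Idgf and collagen IV genes lie above 0 and all condensin and chromosomal passenger genes below it, while the laminin genes lie near 0 and the Mcm and Orc genes on both sides of it.

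Among 67 genes of the cell cycle, 33 were lower (49.3%) and 14 higher. tum (tumbleweed), the RacGAP of the cytokinetic midzone, read 10.997, 10.90 and 10.91 in the control arrays and 9.91, 9.96 and 9.95 in the deficiency arrays. ncd, a minus-end kinesin of the spindle, read 10.05, 10.14 and 10.09 in the control arrays and 9.12, 9.03 and 9.14 in the deficiency arrays, and pim (pimples), the fly securin, read 9.81, 9.75 and 9.85 in the control arrays and 8.92, 8.80 and 8.75 in the deficiency arrays. mars, a spindle-associated protein, changed by -0.77 ± 0.04. CycB and CycB3, the mitotic cyclins, fell by 0.35 and 0.29. pbl (pebble), the RhoGEF that is the partner of tum in cytokinesis, went up and read 10.34, 10.33 and 10.37 in the control arrays and 10.91, 10.95 and 10.96 in the deficiency arrays. The helicase subunit genes Mcm5 and Mcm6 rose by 0.41 and 0.35, and the checkpoint kinase gene lok (Chk2) by 0.45. Over the 12 Mcm and Orc genes 2 were higher and 3 lower, and the S-phase genes PCNA (-0.08 ± 0.04) and CycE (0.03 ± 0.13) did not pass the test. After median centring, the cell cycle list had 34 genes lower and 10 higher. Among 32 apoptosis and DNA damage genes, 13 were higher (40.6%) and 4 lower, which became 9 and 7 after median centring. Damm, a caspase gene, read 5.49, 5.56 and 5.47 in the control arrays and 7.502, 7.46 and 7.65 in the deficiency arrays, and rad50, of double-strand break repair, rose by 0.43, while p53 fell by 0.26 at its brightest probe set and changed by 0.23 at a dim one. The executioner caspase gene Dcp-1 (-0.04 ± 0.04) and the initiator Dronc (0.10 ± 0.05) did not pass the test.

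Genes of the germ line and of piRNA silencing were more often lower than higher. Of 43 measured, 25 were lower (58.1%) and 4 higher, with a median change of -0.32. Besides krimp and bcd, aub (aubergine), a Piwi protein, read 7.80, 7.79 and 7.77 in the control arrays and 6.86, 6.88 and 6.86 in the deficiency arrays, and AGO3, its partner in the amplification cycle, read 7.15, 7.14 and 7.09 in the control arrays and 5.31, 5.65 and 5.63 in the deficiency arrays. smg (smaug), a translational repressor that clears maternal mRNAs, read 9.90, 9.80 and 9.90 in the control arrays and 8.79, 8.83 and 8.74 in the deficiency arrays. bam (bag of marbles) changed by -1.42 ± 0.13. piwi (-0.15 ± 0.16) and vas (0.01 ± 0.06) did not pass the test, and nanos rose by 0.78 from a background level. bcd, smg and the pair of Piwi genes have maternal products. Of the 10 germ cell markers, aub, AGO3, krimp, bam and ovo were lower, nanos was higher and 4 did not pass the test, so most of the lower markers are genes of this list.

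**Figure D4:**
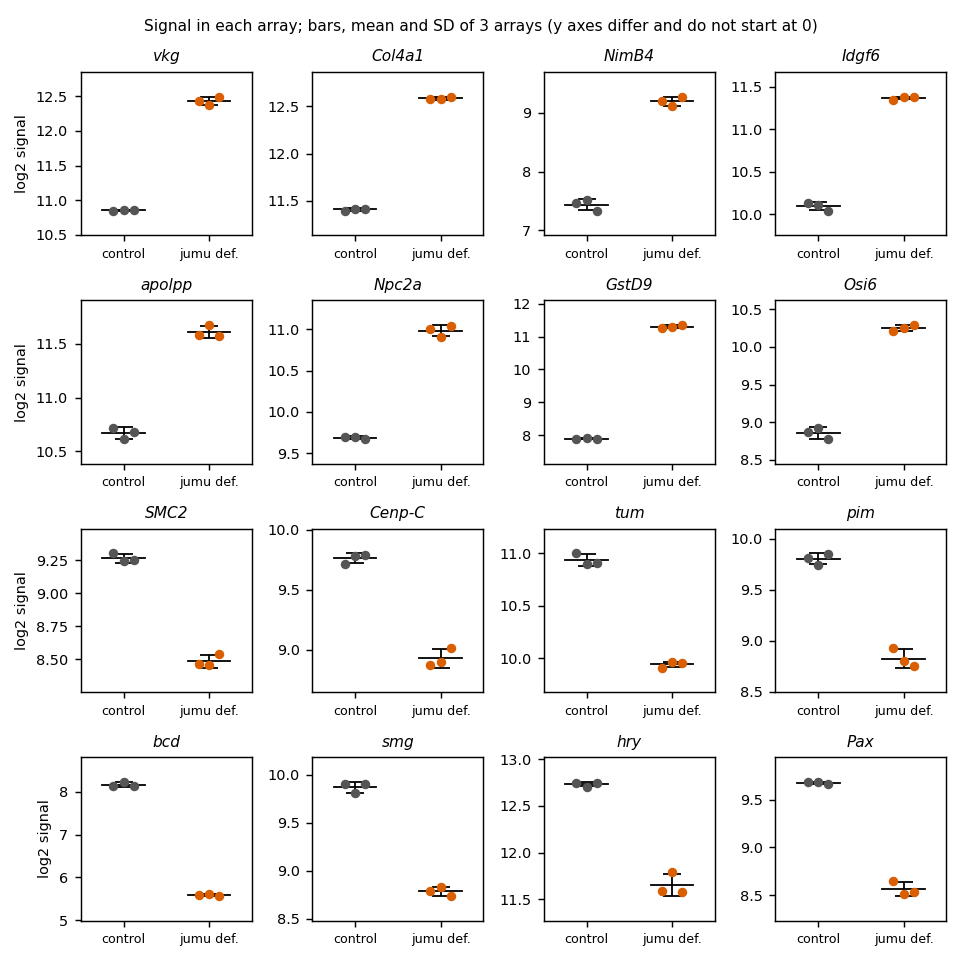
Log2 signal of 16 genes named in the text in each control array (grey) and each jumu deficiency array (orange), with the mean and SD of 3 arrays. The groups do not overlap for any of the 16; the top 8 genes are higher and the bottom 8 lower in the deficiency.

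Among genes of protein synthesis, few calls were made for the cytosolic ribosome, whose signals lay near the top of the scale. Of 39 measured cytosolic ribosomal protein genes, none was higher and 1 was lower, with changes between -0.15 and 0.09. Of these 39, 2 had an unadjusted p under 0.05, against 5713 of all 11982 genes. Their median control signal was 14.39, where the brightest probe set of an array read 14.76 to 14.82, so a change of these genes may not be measurable here. In the nucleolar and ribosome assembly list, 23 of 47 were lower (48.9%) and 2 higher, which became 21 and 5 after quantile normalization. Of 6 measured RNA polymerase I subunit genes, 4 fell. Polr1E read 11.81, 11.79 and 11.80 in the control arrays and 11.27, 11.28 and 11.31 in the deficiency arrays, and Polr1B changed by -0.51 ± 0.04. RIOK1, a kinase of small subunit maturation, fell by 0.71, whereas Rbm13 (a large subunit assembly factor in yeast) read 8.90, 8.91 and 8.81 in the control arrays and 10.21, 10.16 and 10.11 in the deficiency arrays. The cytosolic chaperonin CCT, which folds actin and tubulin, had 5 of 8 subunit genes lower and none higher, CCT2 by 0.29. Of 71 mitochondrial ribosomal protein genes, 13 were higher and 8 lower, but 8 and 13 after median centring. Proteasome genes had 11 of 40 lower and 3 higher, with Prosalpha4 (-0.28) and Prosalpha6 (-0.26) leading.

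Chromatin regulators of the Polycomb and trithorax groups and nucleosome remodellers were lower in 17 of 45 cases (37.8%) and higher in 2. Their median control signal was 10.27, and of all genes with a control signal of 9 to 11, 32.9% were lower and 21.4% higher. The share of lower members was thus close to that of genes of like signal. jing, a zinc finger partner of Polycomb repression, read 11.08, 11.04 and 11.01 in the control arrays and 10.17, 10.11 and 10.17 in the deficiency arrays. HDAC6, a cytoplasmic deacetylase, changed by -0.78 ± 0.07, and Set2, the histone H3 lysine methyltransferase of transcribed genes, by -0.45 ± 0.04. The Polycomb genes Pc (0.08 ± 0.07) and E(z) (0.04 ± 0.07) did not pass the test, and esc rose by 0.16.

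Genes of the Notch pathway, in which ligand binding releases an intracellular activator of the E(spl) repressors, were lower in 16 of 33 cases (48.5%) and higher in 5. hry, given above, and Hey, a bHLH repressor of the same class, fell the most, and Hey read 8.07, 7.99 and 7.93 in the control arrays and 7.11, 7.19 and 7.08 in the deficiency arrays. Of 9 measured genes of the E(spl) complex, 8 fell, by 0.14 to 0.29, and E(spl)m4-BFM did not pass the test (-0.03). E(spl)m7-HLH read 12.51, 12.48 and 12.47 in the control arrays and 12.21, 12.24 and 12.22 in the deficiency arrays. Higher members included the protease gene kuz (0.35), the gamma-secretase subunit gene pen-2 (0.42) and numb, an inhibitor of Notch at asymmetric divisions, which read 10.34, 10.36 and 10.37 in the control arrays and 10.98, 10.77 and 10.76 in the deficiency arrays. The first deficiency array of numb was its highest.

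In Hedgehog signalling, ptc (patched), the receptor gene and a known target of the pathway, read 8.63, 8.68 and 8.56 in the control arrays and 6.88, 7.05 and 6.89 in the deficiency arrays and fell by 1.68. rasp, the acyltransferase that activates Hedgehog, fell by 0.75, while hh itself fell by 0.17 and smo by 0.16. ci, the transcription factor of the pathway, did not pass the test (0.14 ± 0.05). Over the Hedgehog and Dpp list 10 of 41 were lower and 5 higher, which became 8 and 8 after quantile normalization. The growth factor gene Pvf1 fell by 0.97 while Pvf2 rose by 1.004 within the background range and their receptor gene Pvr rose by 0.52. In the EGF pathway, the feedback inhibitor gene kek1 fell by 1.28 and the ligand gene Krn by 0.54. stan (starry night), the atypical cadherin of planar polarity, read 7.77, 7.81 and 7.76 in the control arrays and 8.91, 8.73 and 8.93 in the deficiency arrays.

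Genes of the muscle sarcomere were more often lower than higher. Of 30 genes of the contractile apparatus and Z-disc, 13 were lower (43.3%) and 4 higher. sls (sallimus), the titin-like elastic protein, read 12.41, 12.32 and 12.32 in the control arrays and 10.88, 11.74 and 10.68 in the deficiency arrays, a change of -1.25 ± 0.22 (limma, adjusted p = 0.00197). Its deficiency arrays spread over more than 1 log2 unit, with the second nearest to the controls. Its further probe sets changed by -0.72 and -0.81. Mlp60A, a LIM protein of the Z-disc, fell by 0.73, Actn (alpha-actinin) by 0.53 and Mlc1 (a myosin light chain) by 0.38. Gel (gelsolin) rose by 0.73 and CAP, a vinculin-binding adaptor, by 0.54. Of 38 genes of myoblast fusion and muscle identity, 10 were higher and 10 lower, and 7 and 13 after median centring. sns and eya rose (0.84 and 0.68), and the founder adhesion gene kirre (duf) rose by 0.16. The fusion actin regulators Vrp1 (WIP; -0.62) and blow (blown fuse; -0.58) and the membrane protein gene sing (singles bar; -0.33) fell. Of 42 genes of integrins and adhesion 10 were higher and 11 lower, and 10 and 9 after quantile normalization. Among those at muscle attachment sites, Pax (paxillin) read 9.68, 9.68 and 9.66 in the control arrays and 8.64, 8.51 and 8.53 in the deficiency arrays, by (blistery, tensin) changed by -1.07 ± 0.08, and Fit2 (kindlin) by -0.59 ± 0.04, whereas the integrin alpha subunit gene if rose by 0.43.

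Among transcription factor genes, calls went both ways. Of 76 Hox and homeodomain genes 15 were higher and 23 lower, and of 93 genes of the bHLH, T-box, GATA and zinc finger classes 19 were higher and 29 lower. The latter classes had 8 higher and 33 lower after median centring. Rx (Retinal homeobox) read 7.61, 7.73 and 7.78 in the control arrays and 5.74, 5.92 and 5.87 in the deficiency arrays, and NK7.1 read 9.71, 9.64 and 9.75 in the control arrays and 8.42, 8.70 and 8.39 in the deficiency arrays. acj6, a POU factor of sensory neurons, rose by 1.08. The 3 Doc genes, T-box factors of the heart field and amnioserosa, rose by 0.35 to 0.47. sna (snail), the repressor that defines the mesoderm earlier, read 10.11, 10.11 and 10.08 in the control arrays and 9.25, 9.34 and 9.35 in the deficiency arrays, and tx (taxi), a bHLH factor of tendon cells, changed by -1.27 ± 0.05. knrl and kni, sister nuclear receptor genes, fell by 1.36 and 0.70.

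In carbon metabolism, 12 of 33 genes of glycolysis and the citrate cycle were lower (36.4%) and 7 higher, and 14 and 4 after median centring. Eno (enolase) read 11.84, 11.81 and 11.83 in the control arrays and 11.10, 11.08 and 11.06 in the deficiency arrays. Idh fell by 0.69 and Glyp (glycogen phosphorylase) by 0.62, while Ogdh (oxoglutarate dehydrogenase) rose by 0.85. Respiratory complexes held few calls, whose balance depended on scaling. In complex I 5 of 32 were higher and 1 lower, and none and 3 after median centring.

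Genes of the circadian oscillator were few, and of 15 measured 4 were lower and 2 higher, which became 4 and 5 after quantile normalization. Besides Clk and Pdp1, the repressor gene per (period) fell by 0.37 to a background level and the kinase gene dco (discs overgrown) by 0.33. Pdfr, the receptor of pigment-dispersing factor, rose by 0.77.

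Channel and receptor genes included some of the largest changes. Of 86 ion channel genes, 6 were higher and 11 lower (5 and 15 after median centring), and 36 of the 86 exceeded the background bound in the controls. Besides Nach and CngA, stj (straightjacket), a calcium channel subunit, read 4.13, 3.79 and 3.998 in the control arrays and 6.48, 6.16 and 6.40 in the deficiency arrays, and na (narrow abdomen), a sodium leak channel, read 7.14, 6.96 and 7.11 in the control arrays and 5.14, 5.71 and 5.25 in the deficiency arrays. Trpm fell by 0.83, and its 3 further probe sets fell as well. Of 44 genes of peptide and orphan G protein-coupled receptors, 12 were higher and 5 lower, with 8 of the 12 at background in the controls, and median centring left 7 and 6. rk (rickets), the receptor of the moulting hormone bursicon, changed by -1.58 ± 0.10. Of 41 genes of cyclic nucleotide and G protein signalling, 14 were higher and 5 lower (9 and 6 after median centring), including the phosphodiesterase gene Pde8 (1.11) and the learning-related adenylyl cyclase gene rut (rutabaga; -0.52). Among axon guidance and cell surface immunoglobulin genes, 23 of 101 were higher and 16 lower, and 17 and 22 after median centring. The lowest change in this list was that of rig (rigor mortis), at -1.74 ± 0.11, but rig is not an established guidance or surface immunoglobulin gene. The receptor phosphatase genes Lar and Ptp99A changed by -0.64 and -0.96. Further probe sets of Ptp99A changed by -0.48, -0.24, -0.09, -0.09 and 0.09, and only those at -0.48 and -0.24 passed the test. Dscam1, a surface protein with very many splice forms, changed by 0.51 at 1 probe set and -0.01 at another.

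Odorant binding proteins, small secreted carriers, included several clear increases. Obp44a read 6.18, 6.43 and 6.299 in the control arrays and 8.49, 8.31 and 8.66 in the deficiency arrays, and Obp99c changed by 1.10 ± 0.04 and Obp83cd by 1.32 ± 0.08. Obp99a, among the brightest of all genes, fell by 0.54. Over the list of 117 ionotropic receptor and odorant binding protein genes 10 were higher and 13 lower, and 7 and 18 after median centring. Of the 113 odorant and gustatory receptor genes 11 were higher and 6 lower, and 6 and 8 under either other scaling. All 11 were background in the controls, which follows mostly from the definition, since these genes set the background bound. Gr93b and Gr93c fell by 0.78 and 0.82.

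Transport proteins of membranes were mixed. Of 66 solute carrier and ABC transporter genes, 14 were higher and 14 lower, which became 11 and 16 after median centring. Oatp33Eb, an organic anion transporter, read 4.79, 4.88 and 4.95 in the control arrays and 7.35, 7.37 and 7.65 in the deficiency arrays, and Zip102B, a zinc importer gene on chromosome 4 beside Rnf11, read 8.501, 8.47 and 8.51 in the control arrays and 10.31, 10.17 and 10.32 in the deficiency arrays. The zinc exporter genes ZnT77C and ZnT49B fell by 1.47 and 1.33. JhI-21, an amino acid transporter, rose by 1.03. Proton pump subunits of the vacuolar ATPase were higher in 10 of 31 cases and lower in 2 (4 and 3 after median centring). The amounts were small, such as 0.27 for VhaPPA1-1 and 0.24 for Vha16-1. A further bright probe set of Vha16-1 did not pass the test (0.01). Of 33 tetraspanin genes 12 were higher and 8 lower. Tsp3A fell by 1.56 and Tsp42El rose by 1.12.

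Among the remaining signalling genes, the insulin, TOR and Hippo list had 12 of 33 lower and 3 higher, but 7 and 6 after quantile normalization. The insulin receptor substrate gene chico fell by 0.28 and the kinase gene Pdk1 by 0.32, whereas Ilp7, an insulin-like peptide, read 4.29, 4.25 and 4.51 in the control arrays and 6.24, 6.21 and 6.40 in the deficiency arrays. The nuclear receptor and ecdysone response list had 11 of 31 lower and 5 higher (13 and 3 after median centring). Hr51 changed by -1.53 ± 0.07, and br (broad), an early ecdysone response gene, by 1.06 ± 0.13. Of the 5 probe sets of br, 2 changed by more than 1. Serpins and serine proteases were mixed. Spn47C read 6.20, 6.41 and 6.28 in the control arrays and 4.39, 4.22 and 4.34 in the deficiency arrays, SP1173 rose by 0.81, and teq (tequila) changed by -0.35 at its brightest probe set and 4.02 at another. kay (kayak, the fly Fos protein) rose by 0.88 at 1 probe set and not at another (0.05).

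Cytoskeletal and RNA processing genes changed mostly by small amounts. Map205, a microtubule-associated protein, read 11.59, 11.58 and 11.65 in the control arrays and 10.54, 10.72 and 10.53 in the deficiency arrays, and Map60, a centrosomal protein, changed by -0.67 ± 0.04. Klc (kinesin light chain) rose by 0.44 and the spectraplakin gene shot by 0.49. In the splicing and RNA processing list 22 of 70 were lower (31.4%) and 10 higher, but 18 and 16 after quantile normalization and 29 and 4 after median centring. Its members include tra2, a splicing regulator (-0.50), and Sf3b1, a core spliceosome subunit (-0.32). Cse1, the exporter that recycles importin, read 8.56, 8.61 and 8.59 in the control arrays and 9.25, 9.28 and 9.31 in the deficiency arrays. In the ubiquitin list 19 of 62 were lower and 9 higher, and 25 and 6 after median centring. The anaphase-promoting complex gene mr (morula) fell by 0.73 and Uba2, of the SUMO-activating enzyme, by 0.42.

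Genes that changed at least 2-fold were spread over all large arms, from 2.24% of the genes on X to 3.42% on 2R. On chromosome 4 they made up 7.69%, with 3 higher and 2 lower. Over calls of any size, the share of genes higher was 16.7% to 19.0% on 2L, 2R, 3L, 3R and X and the share lower 19.97% to 23.8%. Chromosome 4, with 65 measured genes, had 18.5% higher and 30.8% lower, with Zip102B the highest and CG31999 the lowest change. On X the extremes were be, which rose by 2.69 at its brightest probe set and fell by 0.77 at another, and CG13003 (-3.21). Some adjacent genes changed together. In 26 places, at least 2 neighbouring measured genes changed at least 2-fold the same way, 17 of them upward, and they held 57 of the 333 placed genes with such changes (17.1%). The genes in these runs were picked for their changes, so the runs are a description. The longest had 4 genes, NimB1 to NimB4 on 2L, and CG12885, Gr98b, Gr98c and Gr98d on 3R. The Gr98 run rose by 2.76, 5.40, 1.64 and 2.33 in this order. vkg and Col4a1, which lie head to head, GstD9 and GstD1, TwdlF and TwdlG, Osi14 and Osi15, and Cyp4p2 and Cyp4p1 are pairs of related genes. Others joined unrelated genes, as krimp, CG15708 (-2.28) and CngA on 2R, Amyrel and Nach, and nompA and the odorant receptor gene Or47b (1.06). jumu and Rfx formed a run of their own.

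**Figure D5:**
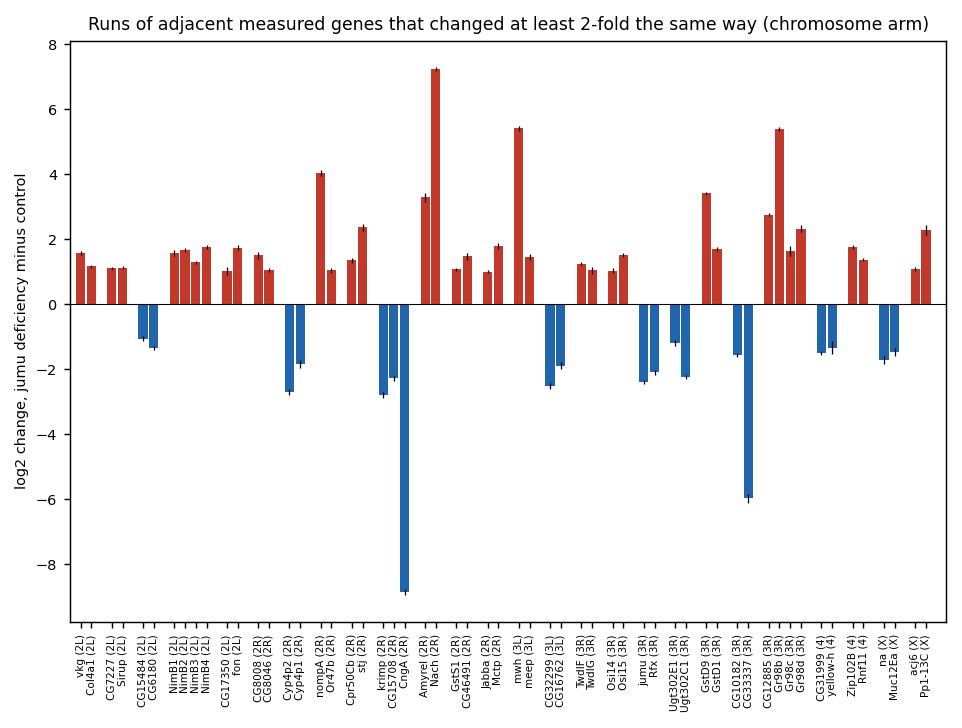
Log2 change (deficiency minus control, y axis, bars with the SE of the fit) of the 57 genes in 26 runs of adjacent measured genes that changed at least 2-fold the same way, grouped by run and labelled with the chromosome arm. Red bars are higher and blue bars lower; the NimB and Gr98 runs have 4 genes each.

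The 3 CHES-1-like null arrays allow a test of whether the mutants differ. It shares the deficiency arrays with the comparison above, so its values are given side by side. Between the mutants 21.2% of genes were higher in the jumu deficiency and 21.1% lower. Several of the groups above were also apart from the other mutant. Such a difference also holds any change of the CHES-1-like null from the control, so it is not the shift of the deficiency alone. Against the control, the CHES-1-like null was higher by 1.58 for AGO3, which fell in the deficiency, and by 0.35 for vkg, which rose in it. Of the heterochromatin and centromere genes 34 of 50 were lower than in the CHES-1-like null and 4 higher, and of the cell cycle genes 44 of 67 were lower and 7 higher. The difference was -1.12 for SMC2 and -1.91 for pim (limma, adjusted p = 7.45e-08 and 1.11e-08). Of the germ line genes 28 of 43 were lower, and of the basement membrane genes 12 of 25 were higher, vkg by 1.23 and Col4a1 by 0.88. NimB4 was higher by 1.69 and Bruce by 3.53. For other leading genes, picked after their values were seen, the difference did not pass the test. For CG33337 it was -0.12 (limma, adjusted p = 0.571), for Cyp4p2 -0.06 (adjusted p = 0.707) and for Idgf2 0.09 (adjusted p = 0.142). For some groups the direction against the CHES-1-like null was the opposite of that against the control. Muscle contractile genes were higher than in the CHES-1-like null in 15 of 30 cases and lower in 2, and nucleolar and ribosome assembly genes were higher in 29 of 47 and lower in 4. Mitochondrial ribosomal protein genes, which showed little change against the control, were higher than in the CHES-1-like null in 63 of 71 cases and lower in none.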

How the data were processed

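Biotinylated cRNA from total RNA of sorted cells was hybridised to 9 Affymetrix Drosophila arrays, per the labels' protocols. The values are log2 signals as deposited, 1 per probe set and array, made with affy, an R package, per the submitters' processing notes. Its version and settings are not stated in the sources used here, and no further normalization was applied.

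Tests ran on 18769 probe sets, after 183 array controls had been set aside. GEO's platform annotation named 1 gene for 13647 of them, several for 402 and none for 4720. The symbols of 13544 were updated with a RefSeq gene table, and 103 kept the older symbol. Each gene was read from whichever of its probe sets was brightest on average across the 9 arrays, which gave 11982 genes, 1094 with several probe sets. Genes measured only by probe sets shared between genes were not analysed here. Near-identical family members, such as the Gr98 or glutathione S-transferase genes, may share signal.

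A single limma fit (version 3.58.1, R 4.3.3) took in all 9 arrays, with a mean for each of 3 groups and 6 residual degrees of freedom. Adjusted p-values are Benjamini-Hochberg over all 18769 probe sets, called under 0.05, and come from this fit unless another setting is named. The number of arrays limits the precision. The fit was tested on simulated data. Members, family lists and markers were chosen with earlier results of these data known, and lists are described by counts and medians without a test. Named genes are jumu, CHES-1-like, the 20 highest and 20 lowest changes with arrays that did not overlap, the 12 highest and 12 lowest among the brightest 10%, up to 4 higher and 4 lower of smallest p per family, members of small complexes and the extremes of each arm. Neighbours, receptors and markers came from their place or list. Some widely known members, such as cid, CycB, CycE, Dronc, hh, ci, kirre and E(z), were added after their values were seen.

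Titles number the replicates 1 to 3 in each group. Deviations of same-numbered control and deficiency arrays from their group means correlated at -0.104, -0.070 and -0.057, so the numbers do not pair the arrays. Alternatives changed the scaling (quantile normalization or median centring), the probe sets (without the dimmest 40%, or the mean over those of a gene), the samples (only the 6 arrays compared, or without 1 array), the model (a replicate block, array weights, or robust estimation with a variance trend) and the call (an adjusted p under 0.01, or over 1.5-fold by limma's treat).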

Additional observations from a re-analysis of the deposited data

How the results depend on the processing

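The alternatives left the counts of probe sets within 1.5 times of those reported, with the following exceptions. Median centring gave 1820 higher probe sets against 2781 and 16 families with more genes higher than lower against 27, and by its construction it moved the median change of all probe sets from 0.020 to -0.038. A threshold of 0.01 gave 1795 higher. A minimum change of 1.5-fold, which tests for more than a difference from 0, gave 325 higher and 277 lower, with 154 of the 483 called named genes left and 141 of the 387 that differed from the CHES-1-like null. No named gene changed direction under any alternative run. The majority direction of the calls changed in 10 of 59 families under quantile normalization and in 11 under median centring. It changed in 21 under the minimum change of 1.5-fold, and in fewer families under each remaining alternative than under these. Without the dimmest 40% of probe sets, the median change of the tetraspanin genes was -0.020 against 0.145, by its construction over fewer genes. Leaving out 1 array at a time gave 2258 to 3061 higher probe sets, 2674 to 3416 lower, 250 to 255 and 199 to 225 with at least 2-fold changes, 26 to 29 families with more genes higher, 462 to 480 called named genes and 365 to 381 that differed from the CHES-1-like null. The replicate block, whose numbers did not pair the arrays, gave 2576 higher and 3006 lower, with 254 and 204 at least 2-fold; 472 named genes stayed called. Signals under the background bound limit fold changes: such folds are lower bounds, and 556 of the 2113 higher genes started there.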
